A study of Mus musculus with 8 samples.

Results

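A panel of 40 interferon-stimulated genes, with Ifi27l2a set apart, was examined in whole blood of mice subjected to restraint stress (RST). RST mice were kept in ventilated 50 mL tubes for 6 hours a day until Day 7, and control mice went without food and water over the same hours but were otherwise left alone. All animals were female, of the C57BL/6J strain per the study's methods, which give 6 to 8 weeks as the age at purchase, before acclimation. Each group held 4 mice with 1 Affymetrix mouse genome expression array per mouse, and values are on the log2 scale of the deposited table. The panel was chosen by the difference between RST and control blood in these same arrays, and Ifi27l2a was set apart because it was seen to be lowered most, so the RST and control values below are a description and carry no test. Of the 40 genes, 38 had 1 or more probe sets annotated to that gene alone (64 probe sets). Ifi44 and Isg15 had none and are named only. The arrays as a whole measured 18193 genes, 11762 of them past a filter on low values (2 or more of the 4 arrays of either group above their own median). Mx2 was the single measured panel gene below that filter.

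Type I interferons bind a receptor pair on the cell surface and activate the kinases JAK1 and TYK2, which phosphorylate STAT2. Phosphorylated STAT2 joins IRF9 in a complex that enters the nucleus and binds the interferon-stimulated response element (ISRE) in front of its target genes. The products sense foreign RNA and DNA, degrade or edit RNA, block entry and release of virus, and tag proteins with the ubiquitin-like ISG15. Leukocytes of blood keep these genes at a basal level without infection.

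The promoter sequences of 30 of the 40 genes were in the RefSeq table used (GRCm38.p6, 250 bases before to 50 after each start). The ISRE core GAAANNGAAA, read on both strands, lay in the promoter of 13 of these 30 genes (43.3%), against 1079 of the 27025 genes of the table (3.99%). The core of the gamma-activated site, TTCNNNGAA, lay in 7 of 30 (23.3%), against 9.55% of all genes. For 8 measured genes an ISRE core lay wholly before the start. These 8 stretches are shown because their genes ranged from lower to higher in RST blood while holding the same core, which is given in capitals (as TTTCNNTTTC where it reads on the opposite strand).

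Stat2: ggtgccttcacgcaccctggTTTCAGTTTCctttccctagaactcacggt
Ifit3: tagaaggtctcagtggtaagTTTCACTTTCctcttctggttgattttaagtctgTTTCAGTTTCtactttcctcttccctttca
Ifit1: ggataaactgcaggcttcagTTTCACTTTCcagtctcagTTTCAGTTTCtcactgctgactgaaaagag
Oas1a: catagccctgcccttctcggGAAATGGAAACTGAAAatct
Oas3: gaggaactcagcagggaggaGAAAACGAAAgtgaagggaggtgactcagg
Bst2: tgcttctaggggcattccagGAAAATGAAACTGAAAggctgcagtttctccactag
Rsad2: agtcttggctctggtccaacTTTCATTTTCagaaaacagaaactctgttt
Trim30a: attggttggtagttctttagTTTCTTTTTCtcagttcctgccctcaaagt

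All are printed 5′ to 3′ in the direction of the gene, with 20 bases on each side of the outermost cores, fewer where the start was reached: Stat2 at chr10:128270256-128270305 (plus strand), Ifit3 at chr19:34583353-34583436 (plus strand), Ifit1 at chr19:34640765-34640833 (plus strand), Oas1a at chr5:120907526-120907565 (minus strand), Oas3 at chr5:120777705-120777754 (minus strand), Bst2 at chr8:71537567-71537622 (minus strand), Rsad2 at chr12:26456543-26456592 (minus strand) and Trim30a at chr7:104465200-104465249 (minus strand). Ifit1 and Ifit3 each held 2 separate cores, and in Bst2 and Oas1a 2 cores overlapped. In Ddx58, Eif2ak2, Ifih1 and Ifitm3 a core was found only at or past the start. The table had no entry for Ifi27l2a, Oas2, Mx1, Mx2, Usp18, Dhx58, Zbp1, Rtp4, Parp9 and Parp14.

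The arrays differed in ways that bear on every value below. The hybridization controls, bacterial transcripts added at a set amount, averaged 11.90 to 12.74 in control mice and 12.35 to 12.73 in RST mice, with control mice 1 and 2 the lowest (11.93 and 11.90). RST mouse 4 had the lowest value of all 8 mice for 46.8% of genes. The median of the differences over all genes past the filter, called the median gene below, was -0.24. The median level of those genes ran from 5.25 to 5.59 in control mice and from 4.53 to 5.36 in RST mice. The signal of Gapdh at its 3′ end minus that at its 5′ end, a sign of RNA quality, was 1.55 to 2.07 in control and 1.42 to 1.80 in RST mice. Nothing in the labels ties an array to an extraction or scan batch.

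Most of the panel had a lower mean in RST blood, by less than Ifi27l2a. The mean was lower in 31 of the 38 measured genes and higher in 7, beside 67.6% of all genes past the filter with a lower mean. This split depended on the scaling: 36 of 38 were lower when arrays were scaled to the hybridization controls (87.9% of genes), and 26 of 38 after quantile normalization (54.0% of genes). The median difference over the panel was -0.62, or -0.37 relative to the median gene, and 24 of the 38 lay below the median gene. The mean of the panel without Ifi27l2a was also read against the median level of all genes past the filter in each mouse. That difference was smaller, at -0.11, and the groups overlapped. The median relative to the median gene was -0.22 without control mouse 1 and also without RST mouse 1, -0.58 without RST mouse 2, -0.18 with the hybridization controls as a covariate and -0.18 when each gene was the mean over its probe sets. Every RST mouse lay below every control mouse in 7 genes (Ifi27l2a, Ifi35, Samd9l, Xaf1, Trim25, Bst2 and Trim30a), beside 6.57% of all genes. This holds for the brightest probe set of each, and other probe sets of Ifi35 and Trim30a past the filter overlapped. Every RST mouse lay above every control mouse in Oas3 alone, beside 2.37% of all genes. In bulk blood, fewer cells of a type and less RNA per cell cannot be told apart.

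In limma, no gene of the arrays passed an adjusted p of 0.05 with a fold change above 1.5 (0.00% of 11762 genes), and the smallest adjusted p over 25084 probe sets was 0.32. With that fold change and a p under 0.05 before adjustment, 11 panel genes were lower, beside 12.8% of all genes, and 1 was higher, beside 2.80%. The 11 were the 7 named above without an overlap together with Rtp4, Ifit3, Irf9 and Stat2, and the 1 was Oas3. No member is supported by these counts, since the panel was selected on the same contrast. An ordinary linear model fitted gene by gene, without limma's shared variance, gave 0 probe sets after adjustment. Without adjustment it gave 8 panel genes lower, beside 8.16% of all genes.

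**Figure D1:**
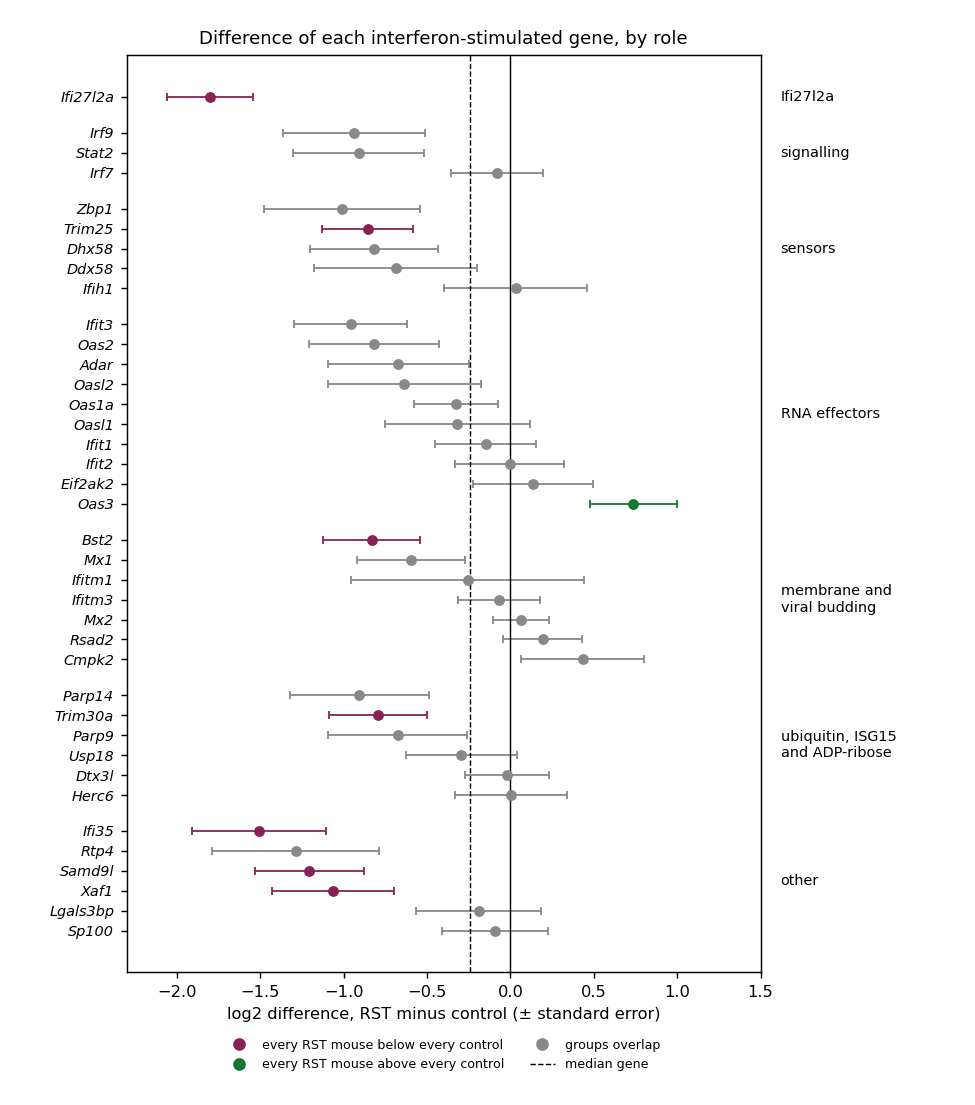
Difference of each of the 38 measured genes, RST minus control, on the log2 scale (points) with its standard error from limma (bars), grouped by role. The dashed line marks the median gene at -0.24. Ifi27l2a lies farthest to the left at -1.80 and Oas3 farthest to the right at 0.74.

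Ifi27l2a encodes a small hydrophobic protein of the interferon-inducible ISG12 family that sits in intracellular membranes. Its single probe set measured 10.05, 9.53, 9.47 and 9.41 in control mice 1 to 4 and 7.64, 7.88, 8.06 and 7.68 in RST mice 1 to 4. The groups were apart by 1.35 between the lowest control and the highest RST mouse, and the mice of each group lay close together, with SDs of 0.30 (control) and 0.19 (RST, n = 4 each). The difference was -1.80 (standard error 0.26), a level 3.48-fold lower. Of the 11762 genes, 4 had a lower difference and none a wider gap in this direction. The panel gene next to it was Ifi35 at -1.51 (standard error 0.40). Unlike most of the panel, Ifi27l2a was not at its lowest in RST mouse 4, and it was -1.75 without that mouse. Without control mouse 1, its highest, it was -1.65.

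The relatives of Ifi27l2a on the array had differences near 0. Ifi27 was at 7.80, 7.96, 8.34 and 8.58 in control mice and at 8.48, 8.57, 8.15 and 8.21 in RST mice, a difference of 0.18 (standard error 0.27). Ifi27l2b was at 5.40, 5.32, 5.86 and 5.77 in control mice and at 5.87, 4.97, 5.76 and 5.54 in RST mice, a difference of -0.05 (standard error 0.28). In both, the RST and control mice overlapped. These 2 genes were picked as relatives, outside the rule for named genes.

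**Figure D2:**
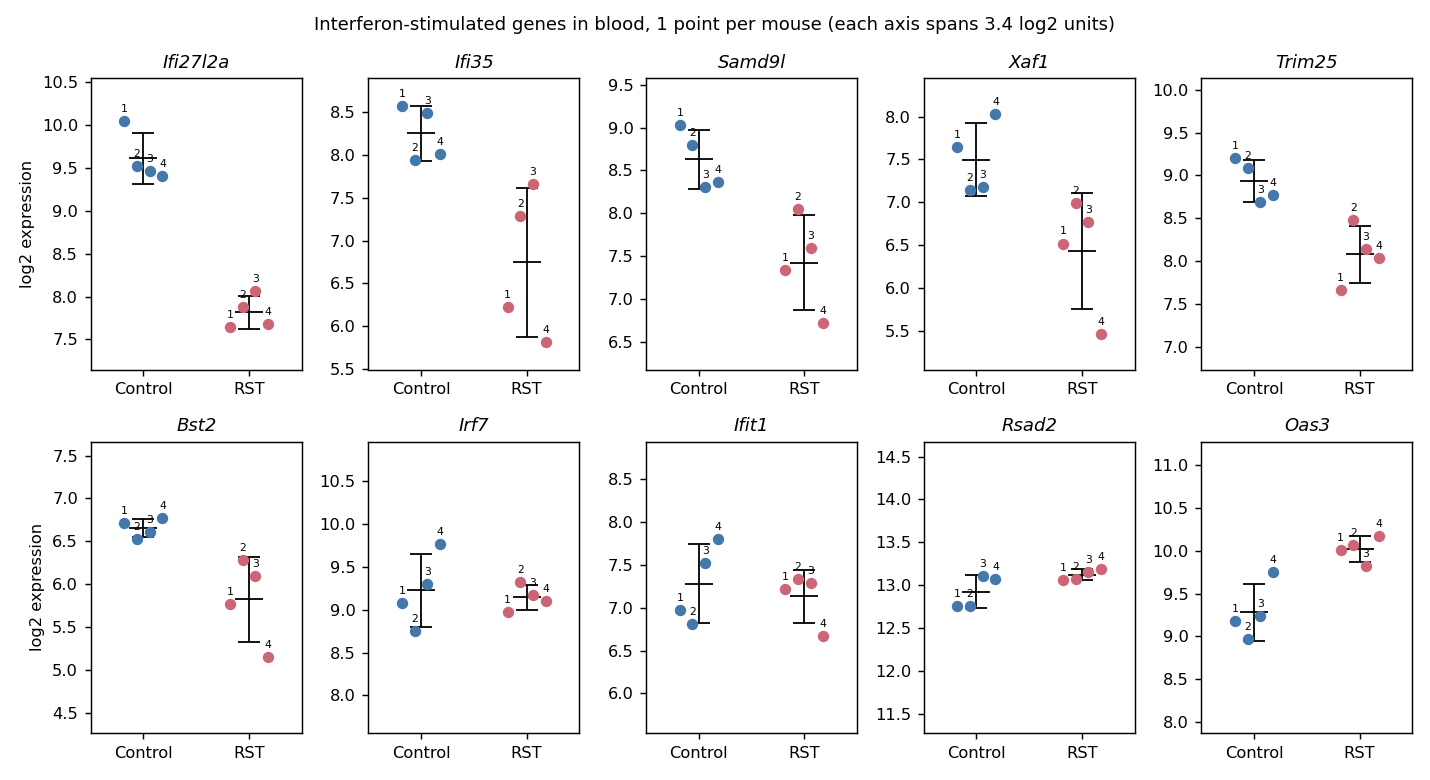
Log2 expression of 10 panel genes in each control mouse (blue) and RST mouse (red), numbered by mouse, with the mean and SD of each group in black (n = 4). Each axis spans the same number of log2 units. Ifi27l2a, Ifi35, Samd9l, Xaf1, Trim25 and Bst2 show no overlap with RST lower, Oas3 none with RST higher, and Irf7, Ifit1 and Rsad2 overlap.

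Among the 3 signalling genes, both partners in the ISRE-binding complex had a lower mean in RST blood while Irf7 was near 0, and the median difference was -0.91. Irf9, the DNA-binding part of that complex, measured 6.69, 6.28, 5.99 and 5.46 in control mice and 5.02, 6.20, 5.31 and 4.13 in RST mice, a difference of -0.94 (standard error 0.42). Stat2, its transactivating part, measured 5.47, 5.21, 4.08 and 4.01 against 3.39, 4.44, 3.68 and 3.61, a difference of -0.91 (standard error 0.39). In both genes the groups overlapped through RST mouse 2, which lay among the controls. Control mice 1 and 2, the arrays with the lowest hybridization controls, were the highest controls in both, and with those controls as a covariate Irf9 was at -0.50 and Stat2 at -0.32. Without RST mouse 4, Irf9 was at -0.59. Irf7, which drives the induction of interferon alpha genes, measured 9.07, 8.76, 9.31 and 9.77 against 8.97, 9.33, 9.17 and 9.11. Its difference was -0.08 (standard error 0.28), with every RST mouse inside the control range.

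Of the 5 sensors of foreign nucleic acid and their activators, 4 had a lower mean, with a median difference of -0.82. Zbp1, a receptor for Z-form nucleic acids, measured 6.41, 5.77, 5.99 and 5.88 in control mice and 4.91, 6.21, 5.32 and 3.58 in RST mice, a difference of -1.01 (standard error 0.47). RST mouse 4 was far below and RST mouse 2 above all but 1 control. A second probe set of Zbp1 had no overlap, with RST mouse 1 lowest at 3.18 and RST mouse 4 at 5.09. Trim25, a ubiquitin ligase that activates RIG-I, measured 9.20, 9.09, 8.69 and 8.77 against 7.67, 8.48, 8.14 and 8.04, with no overlap and a difference of -0.86 (standard error 0.27). The 3 RIG-I-like receptors were Dhx58 (LGP2) at -0.82 (standard error 0.38), Ddx58 (RIG-I) at -0.69 (standard error 0.49) and Ifih1 (MDA5) at 0.03 (standard error 0.43). All 3 overlapped between groups, and without RST mouse 4 Ddx58 was at -0.20. Dhx58 was at a low level, 2.50 to 3.63 in RST mice. Its other probe sets, at 0.50 and 0.01, lay below the filter, and the mean over its probe sets gave -0.10.

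The 10 genes that act on RNA held both directions, and their median difference was -0.32, or -0.08 relative to the median gene. Ifit3, which binds Ifit1 and strengthens its grip on viral RNA, measured 7.12, 6.48, 6.76 and 6.55 in control mice and 5.51, 6.55, 5.98 and 5.04 in RST mice. Its difference was -0.96 (standard error 0.34), and the groups overlapped only because RST mouse 2 matched the second lowest control. Ifit1 itself, which binds the caps of foreign RNA, was at -0.15 (standard error 0.30), and Ifit2, which binds AU-rich RNA, at -0.00 (standard error 0.33). Ifit2 and Ifit3 lie next to each other on chromosome 19.

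The oligoadenylate synthetases, which make the activator of RNase L, did not share 1 direction. Oas3 measured 9.17, 8.97, 9.24 and 9.75 in control mice and 10.01, 10.07, 9.82 and 10.18 in RST mice. Every RST mouse was above every control, by 0.08 at the closest pair, and the difference was 0.74 (standard error 0.26), a level 1.67-fold higher. Over the alternatives it ran from 0.40 to 0.89. Oas2, the neighbouring gene on chromosome 5, was at -0.82 (standard error 0.39), with an overlap. Oas1a was at -0.33 (standard error 0.25). Oasl1, an OAS-like gene that limits translation of Irf7, was at -0.32 (standard error 0.44), and Oasl2, its neighbour on chromosome 5, at -0.64 (standard error 0.46). The last 3 overlapped between groups.

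Adar, which edits adenosine in double-stranded RNA, was at -0.67 (standard error 0.42). Eif2ak2, the kinase PKR that halts translation on double-stranded RNA, was at 0.14 (standard error 0.36) by its brightest probe set and at -0.72 by another, so its direction is not settled.

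The 7 genes acting at membranes or on viral release and replication had a median difference of -0.07, with 3 of them below the median gene and Bst2 the lowest. Bst2 (tetherin), which holds budding virus at the cell surface and is abundant on plasmacytoid dendritic cells, measured 6.71, 6.53, 6.61 and 6.77 in control mice and 5.77, 6.28, 6.10 and 5.15 in RST mice. The groups were apart by 0.25, with a difference of -0.83 (standard error 0.29), and the controls lay within an SD of 0.11. Rsad2 (viperin), which makes a chain-terminating nucleotide, measured 12.76, 12.76, 13.11 and 13.07 against 13.06, 13.07, 13.16 and 13.19. Its difference was 0.19 (standard error 0.24), with RST mice at the level of control mice 3 and 4, and its direction turned under scaling to the hybridization controls (-0.14). Cmpk2, a mitochondrial nucleotide kinase next to Rsad2 on chromosome 12, measured 5.56, 4.90, 4.51 and 5.87 against 5.73, 6.20, 5.73 and 4.92. Its difference was 0.43 (standard error 0.37), with RST mouse 4 down among the lower controls.

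Ifitm1, which blocks viral entry, carried the widest spread of the panel in RST blood (SD 1.80), from 5.24 in RST mouse 4 to 9.37 in RST mouse 2, while the controls lay between 6.73 and 7.62. Its difference of -0.26 (standard error 0.70) rests on which of these mice is kept: it was -1.09 without RST mouse 2. Ifitm3, its neighbour on chromosome 7 and likewise an entry factor, was at -0.07 (standard error 0.24), with SDs of 0.18 and 0.20. The dynamin-like GTPases Mx1 and Mx2 were at -0.59 (standard error 0.32) and 0.07 (standard error 0.17), the latter at a level below the filter in both groups.

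Of the 6 genes for ubiquitin, ISG15 and ADP-ribose, 5 had a lower mean, with a median difference of -0.48. Parp14, an ADP-ribosyltransferase, measured 7.88, 7.61, 6.94 and 7.03 in control mice and 6.57, 6.99, 7.06 and 5.21 in RST mice, a difference of -0.91 (standard error 0.42). RST mice 2 and 3 reached the 2 lower controls, and RST mouse 4 was lowest by far. Trim30a, a TRIM protein that restrains NF-kB signalling, measured 9.19, 9.08, 8.78 and 8.67 against 7.79, 8.66, 8.41 and 7.70. No RST mouse reached the controls, but the gap was 0.01, with a difference of -0.79 (standard error 0.29). A second probe set of Trim30a, at -0.99, overlapped between groups.

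Dtx3l, a ubiquitin ligase, measured 9.36, 9.17, 8.89 and 9.28 in control mice and 9.11, 9.52, 8.99 and 9.01 in RST mice, a difference of -0.02 (standard error 0.25). Its binding partner Parp9 was at -0.68 (standard error 0.42), and Parp9, Dtx3l and Parp14 follow one another on chromosome 16. Usp18, which strips ISG15 from proteins and holds back the interferon receptor, was at -0.29 (standard error 0.33). Herc6, the main ISG15 ligase of the mouse, was at 0.00 (standard error 0.34), with its 4 probe sets running from -0.45 to 0.52.

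The 6 remaining genes included the 4 lowest differences after Ifi27l2a, with a median difference of -1.14, and the groups were apart in 3 of them. Ifi35, a leucine zipper protein that pairs with NMI, measured 8.57, 7.95, 8.49 and 8.01 in control mice and 6.22, 7.28, 7.66 and 5.82 in RST mice. The gap was 0.28, and the difference of -1.51 (standard error 0.40) was a level 2.84-fold lower. Its 3 probe sets ran from -1.51 to -0.65, and the groups overlapped in all but the brightest, which is the one given here. RST mice 1 and 4 were more than 1 log2 unit below RST mice 2 and 3.

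Samd9l, an antiviral and growth-restricting protein, measured 9.03, 8.80, 8.31 and 8.37 in control mice and 7.34, 8.04, 7.59 and 6.71 in RST mice, a difference of -1.21 (standard error 0.33). Xaf1, an antagonist of the apoptosis inhibitor XIAP, measured 7.65, 7.15, 7.17 and 8.03 against 6.52, 6.99, 6.77 and 5.46, a difference of -1.07 (standard error 0.37). The groups were apart by 0.26 in Samd9l and by 0.16 in Xaf1, with RST mouse 4 lowest in both. The values of every mouse for these 2 genes are given after they were seen to be apart, outside the rule for named genes. Rtp4, a receptor transporter protein, measured 6.65, 6.11, 5.96 and 5.50 against 4.20, 5.99, 5.43 and 3.45, a difference of -1.29 (standard error 0.50). RST mouse 2 reached the controls there, and a second probe set of Rtp4 gave 0.00, so the 2 probe sets disagreed.

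Sp100, a nuclear body protein, measured 9.58, 9.27, 8.44 and 9.50 in control mice and 9.04, 9.47, 8.66 and 9.24 in RST mice, a difference of -0.09 (standard error 0.32). Lgals3bp, a secreted glycoprotein, was at -0.19 (standard error 0.38). Every RST value of Sp100 lay inside the control range.

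**Figure D3:**
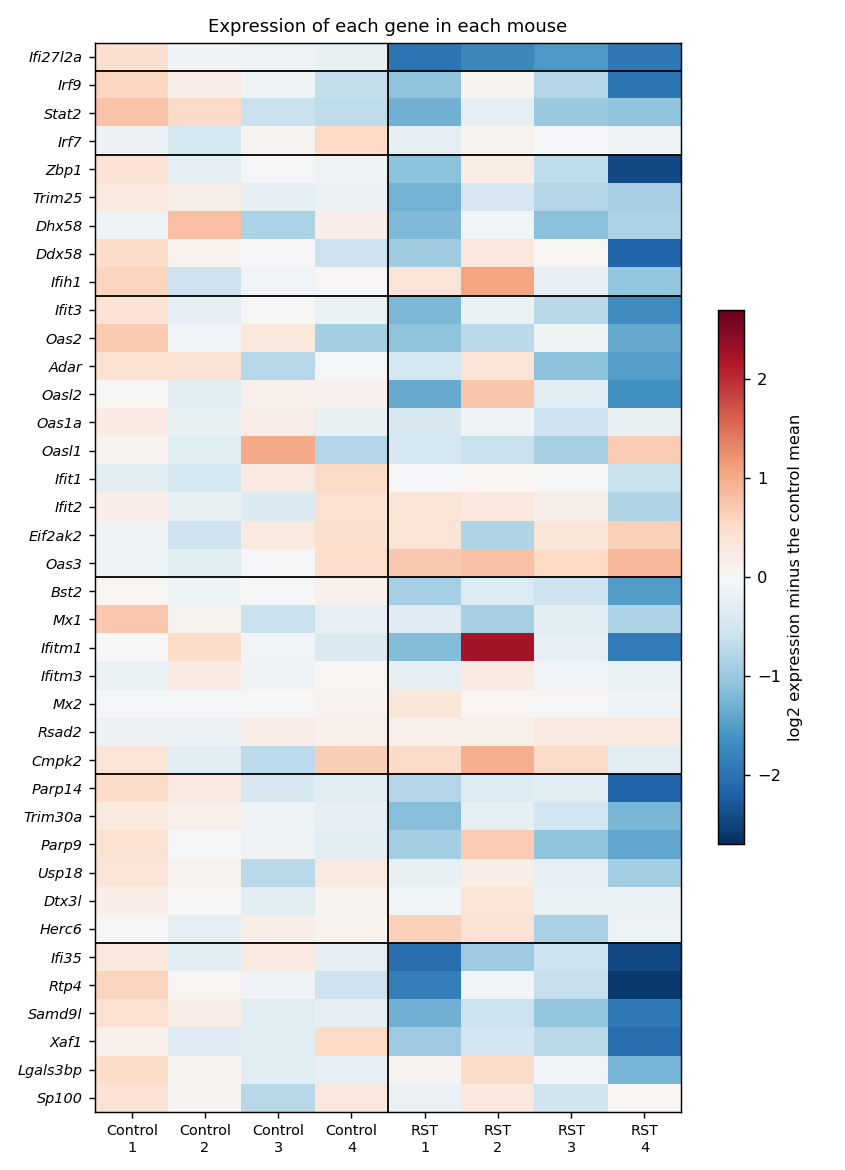
Log2 expression of each of the 38 genes (rows, grouped by role and ordered by difference) in each of the 8 mice (columns), minus the mean of the control mice. Red is above and blue below that mean. RST mouse 4 is the lowest of the 8 mice in 22 genes, RST mouse 2 is near the controls in many, and Ifi27l2a is low in all 4 RST mice.

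The spread within the RST group turned on single mice. RST mouse 4 was the lowest of the 8 mice in 22 of the 38 genes, beside 46.8% of all genes past the filter. RST mouse 2 was the highest RST mouse in 26 of 38, beside 45.7% of all genes. Control mouse 1 was the highest of all mice in 17 of 38, beside 22.0% of genes. The median SD over the panel was 0.37 in control and 0.55 in RST mice (0.40 and 0.49 over all genes). Without RST mouse 4 it was 0.38 in RST mice, and over all genes it fell likewise, to 0.35.

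Leaving out single mice moved the counts. Without RST mouse 2, 15 genes had every RST mouse below every control (16.6% of all genes) and 18 were lower by the p before adjustment and the same fold (20.7% of all genes). Without RST mouse 4, the mean was lower in 27 of 38 (59.7% of genes), and these 2 counts were 7 (7.13% of all genes) and 8 (6.70%). The unadjusted count was 7 without control mouse 1 (5.70% of all genes) and also 7 without RST mouse 1 (8.75%). With the arrays of the lowest hybridization controls left out (control mice 1 and 2 and RST mouse 2), 17 genes had no overlap with RST lower (21.1% of all genes) and Ifi35 at -1.68 passed below Ifi27l2a at -1.64. Without RST mouse 4, Zbp1 was at -0.53, Parp14 at -0.49 and Rtp4 at -0.85. Part of any such change in a count of non-overlap follows from fewer mice.

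Probe sets of the same gene did not always give the same direction. In 14 panel genes 2 or more probe sets passed the filter, and all had the same sign in 10 of them. The exceptions were Rtp4, Eif2ak2, Herc6 and Dtx3l. Both probe sets of Trim25 (-0.86 and -1.03), of Zbp1 (-1.01 and -1.16) and of Trim30a (-0.79 and -0.99) had similar mean differences. In Zbp1 and Trim30a, however, the groups overlapped in 1 probe set and not in the other. The 3 of Rsad2 ran from 0.19 to 0.69.

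Measured genes with and without an ISRE core in the promoter covered overlapping ranges. The 12 with the core ran from -0.96 (Ifit3) to 0.74 (Oas3), with a median of -0.24 and 8 of 12 lower. The 16 without ran from -1.51 (Ifi35) to 0.43 (Cmpk2), with a median of -0.29 and 14 of 16 lower. Both counts stand beside 67.6% of all genes past the filter with a lower mean. The 10 measured genes without a promoter entry, Ifi27l2a among them, had a median of -0.82, with 9 of 10 lower. Of the genes with every RST mouse below every control, Ifi35, Samd9l, Xaf1 and Trim25 held no core in the 300 bases searched. Bst2 and Trim30a held the core, and Ifi27l2a had no entry.

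Other genes of the pathway were read from lists chosen with earlier results of these data known. None of their genes passed the adjusted p in limma. Their counts stand beside 67.6% of all genes with a lower mean, 12.8% called lower and 2.80% called higher without adjustment, and 6.57% with every RST mouse below every control. Of 10 measured interferon genes, 4 passed the filter, 3 had a lower and 7 a higher mean, none called without adjustment, and the median difference was 0.06. Ifna5 was at 0.45 (standard error 0.40) and Ifng, the type II interferon, at -0.41 (standard error 0.34). Of 14 receptors, kinases and brakes, 11 had a lower mean and 2 were called lower without adjustment, with a median of -0.19. Those with the largest differences were Tyk2, the receptor kinase, at -0.81 (standard error 0.31) and Ptpn6, the phosphatase SHP-1, at -0.70 (standard error 0.32).

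All 6 other interferon regulatory factors measured had a lower mean and 2 were called lower without adjustment, with a median of -0.70. Irf3, which starts interferon beta transcription, was without overlap at -1.02 (standard error 0.32), and Irf8, a factor of monocytes and dendritic cells, was at -1.00 (standard error 0.42). Of 9 adaptors and kinases downstream of the sensors, 5 had a lower mean and 2 were called lower without adjustment, with a median of -0.07. Sting1, the adaptor for cytosolic DNA, was at -1.04 (standard error 0.47) and Tlr7, an endosomal RNA receptor, at -0.97 (standard error 0.48). Of the 9 GTPases induced mainly by interferon gamma, 7 had a lower mean, 3 were called lower without adjustment (12.8% of all genes) and 2 had no overlap with RST lower (6.57%; Gbp6 and Ifi47, named after their values were seen), with a median of -0.58. Irgm1 was at -1.19 (standard error 0.51) and Gbp2 at -0.72 (standard error 0.56).

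Of 49 further interferon-stimulated genes outside the panel, 44 had a lower and 5 a higher mean, with a median of -0.62. Every RST mouse was below every control in 14 of them (6.57% of all genes), and 17 were called lower (12.8%) and 1 higher (2.80%) without adjustment. Parp12, an ADP-ribosyltransferase, was at -1.24 (standard error 0.50), and Helz2, a nuclear helicase, at -1.22 (standard error 0.44). The 1 called higher was Nt5c3, a pyrimidine nucleotidase of red cells, at 0.63 (standard error 0.28), which was named after its value was seen. Parp12 overlapped between groups and Helz2 did not.

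**Figure D4:**
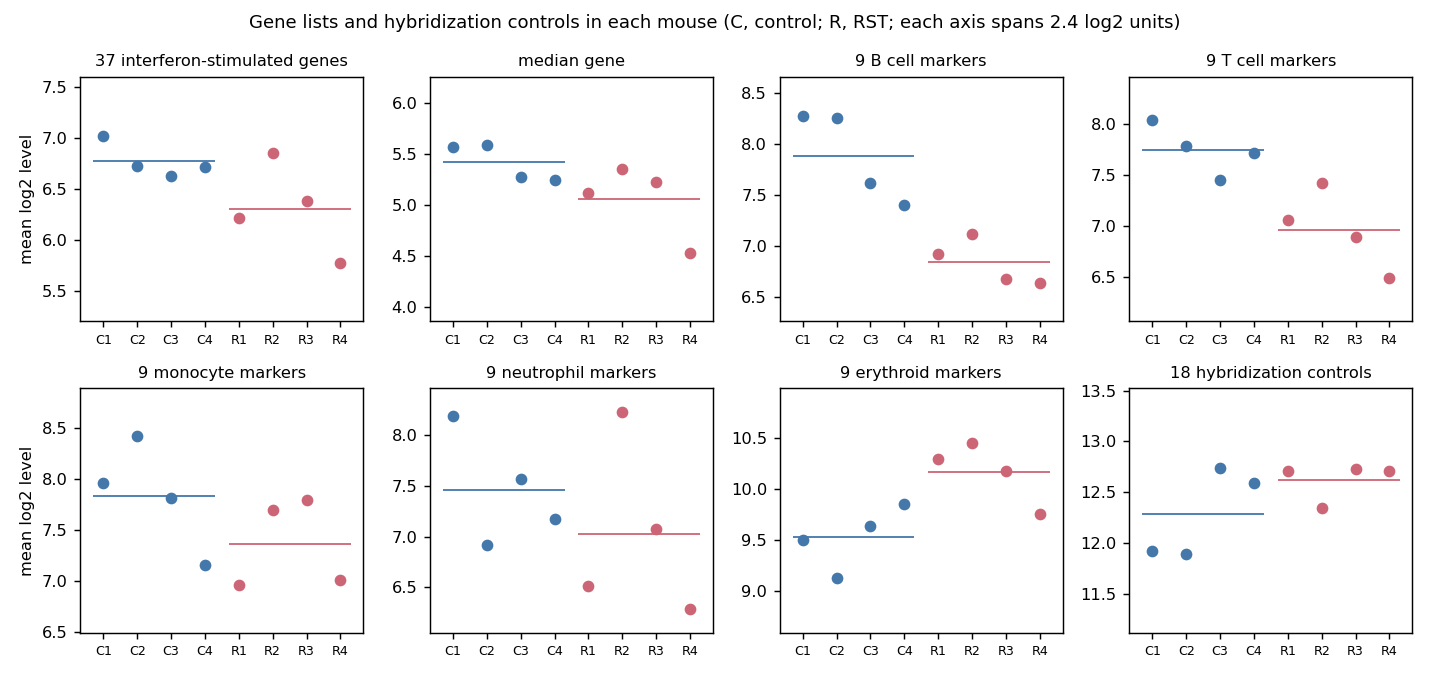
Mean log2 level in each mouse (C, control, blue; R, RST, red) of the panel without Ifi27l2a, the median gene, 5 marker lists and the 18 hybridization control probe sets, with group means as lines. Every axis spans the same number of log2 units. The B and T cell lists are lower in every RST mouse than in any control, while in the panel RST mouse 2 lies inside the control range.

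Markers of B and T cells were lower in RST blood. As measured by 9 genes each, the mean log2 level of B cell markers was 7.40 to 8.28 in control and 6.64 to 7.12 in RST mice, and that of T cell markers 7.45 to 8.04 and 6.49 to 7.42, with no overlap in either. All 9 B cell and all 9 T cell markers had a lower mean, beside 67.6% of all genes past the filter. Summed on the linear scale, B cell markers ran from 2702 to 5546 in control and from 1587 to 2134 in RST mice, and T cell markers from 2542 to 3459 and from 1489 to 2288. The panel without Ifi27l2a averaged 6.63 to 7.02 in control and 5.78 to 6.85 in RST mice, an overlap. The filter was passed by 8 of the 9 B cell markers and by all T cell markers. The part of the cell types in the difference of any panel gene was not tested.

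The 4 other leukocyte lists overlapped between groups in mean log2 level. Their counts of lower means stand beside 67.6% of all genes past the filter. For monocyte markers, 7 of 9 had a lower mean and the sums were 2895 to 6712 in control and 2267 to 4039 in RST mice. For NK cell markers 5 of 6 had a lower mean, with sums of 1873 to 3096 and 1251 to 1649. For neutrophil markers 4 of 9 did, with sums of 7539 to 12937 and 4177 to 11734. The 7 plasmacytoid dendritic cell markers, with Bst2 among them, all had a lower mean, with sums of 376 to 507 and 270 to 354.

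Ifi27l2a was also read against these lists, and its difference was smaller against each leukocyte list. It was -1.01 against T cell, -1.19 against NK cell and -1.33 against monocyte markers. Against neutrophil markers it was -1.37 and against plasmacytoid dendritic cell markers -1.41, with no overlap in any of these. Against the median level of all genes past the filter in each mouse it was -1.44, also without overlap. The values against monocyte, neutrophil and plasmacytoid dendritic cell markers lay near that one. Ifi27l2a was picked as the gene lowered most, so a remaining gap is a description only. The part of the cell types in it was not tested. Its log2 level minus the mean of the T cell markers was 1.69 to 2.02 in control and 0.46 to 1.19 in RST mice. Against the monocyte markers it was 1.11 to 2.26 and 0.19 to 0.69, and against the NK cell markers 1.73 to 2.56 and 0.57 to 1.24. Against the B cell markers the groups overlapped, at 1.27 to 2.01 in control and 0.72 to 1.38 in RST mice, and the difference shrank from -1.80 to -0.75. The mean of the other 37 genes overlapped between groups against each leukocyte list, and against the B cell markers it was higher in RST blood by 0.58.

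Erythroid and platelet markers ran the other way. All 9 erythroid markers had a higher mean in RST blood, 5 without overlap (2.37% of all genes). They summed to 27376 to 32913 in control and 34597 to 37156 in RST mice. Over all genes past the filter, 3812 of 11762 had a higher mean. In mean log2 level of the erythroid markers RST mouse 4, at 9.76, lay inside the control range of 9.13 to 9.86. Of 8 platelet markers 7 had a higher mean. In the panel Oas3, Cmpk2 and Rsad2 had the highest differences (0.74, 0.43 and 0.19), and the part of red cells in these was not tested. All erythroid and platelet markers passed the filter.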

How the data were processed

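Expression was measured in whole blood of 4 RST and 4 control mice on Day 7, from 30 ng total RNA per mouse amplified and hybridized to 1 array each. The deposited table holds 1 log2 value for each probe set and mouse, normalized by the authors. RMA, Partek and version 1.2.0.20 of Affymetrix Expression Console stand in the submitters' processing notes, without their order, and GSRMA within Partek is given in the study's methods. RMA tends to compress fold changes, and the values of low genes carry more background. The number of arrays limits the precision. Each array is labelled as a separate subject, so errors are the spread between mice.

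The panel and all gene lists were chosen with earlier results of these data known. A probe set was kept if, in either group, 2 or more arrays had it above their own median (25084 of 45101), in place of presence calls, which were not used here. Differences between RST and control were fitted by lmFit and eBayes (limma 3.58.1, R 4.3.3) with Benjamini-Hochberg adjustment, called at an adjusted p of 0.05 with a fold above 1.5, and tested on simulated data. Genes were named from the platform annotation, with symbols brought up to date in 34754 cases (RefSeq, GRCm38.p6): 34958 probe sets had 1 gene, 932 several (left unnamed), and 9211 had no entry. Where a gene had several probe sets, the brightest over all arrays stood for it. Genes below the filter were read from a fit of all probe sets.

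Every panel gene is named. Each mouse is given for Ifi27l2a, the brightest gene of each role group and the 2 with the largest absolute difference from the median gene, and of each pathway list the 2 genes with the largest absolute difference past the filter. Cell types were read from marker lists as mean log2 level and linear sum. Motifs were searched in the RefSeq promoters. Alternatives changed the filter, scaling, floor, array weights, prior, test, probe set choice, a replicate block, the hybridization controls as a covariate, and each mouse left out. Python 3.11.15 with matplotlib 3.10.9 drew the figures.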

Additional observations from a re-analysis of the deposited data

How the results depend on the processing

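Ifi27l2a was the lowest panel gene under every setting but 1, with a difference of -1.65 to -1.88 except when arrays were scaled to the hybridization controls (-2.13) or the arrays with the lowest hybridization controls were left out (-1.64, with Ifi35 lower at -1.68), a setting chosen after seeing the data. The other 37 genes kept the sign of their difference over all 20 alternatives in 21 cases and not in 16. Of their 740 values, 689 lay within the spread between mice of the main value. Changes of filter, prior, test and replicate block left each gene's difference as it was by design. The mean over probe sets did the same for genes with 1 probe set, and the floor moved only Mx2. Both counts therefore overstate how steady the differences were. Scaling moved the median gene, from -0.24 to -0.58 under the hybridization controls and to -0.05 after quantile normalization. Genes with every RST mouse below every control numbered 7 (6.57% of all genes), but 2 when scaled to the hybridization controls (4.13%). They numbered 5 for the mean over probe sets, where no share of all genes was taken. With 1 mouse left out they numbered 7 to 15 (7.13% to 16.6% of all genes), with 15 reached without RST mouse 2. Without the 3 arrays of lowest hybridization controls they numbered 17 (21.1%). Genes lower at an unadjusted p numbered 11 (12.8% of all genes), but 6 with the hybridization controls as a covariate (5.27%). With 1 mouse left out they numbered 7 to 18 (5.70% to 20.7%). The share over all genes moved along with these counts. The cause was not tested.

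With the replicate block the count at an unadjusted p was 15 (16.7% of all genes) and Ifi27l2a stayed at -1.80. The numbers share no animal, and the correlations of same-numbered mice (-0.24, 0.42, 0.05 and 0.20) do not pair them. Non-overlap was not counted for the block, the covariate or array weights, nor the unadjusted count for the mean over probe sets. A trended, robust prior in limma gave 35 adjusted calls among probe sets, Ifi27l2a included, which supports nothing here, since the gene was selected on this contrast. Low signal limits Mx2, whose level was below the filter in both groups.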
